A study of Mus musculus with 2 samples.

Results

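TRAV9 is a family of variable gene segments of the T cell receptor α chain (TCRα), and the TRAV9 rearrangements carried by iT cells are described here. iT cells are T cells derived in recipient mice from engineered embryonic stem cells. A TCRα clonotype was one whose best J gene was a TRAJ gene, and it was a TRAV9 clonotype when the first gene in its list of V gene hits belonged to family 9, with or without the letters D or N in its name. By this rule 720 clonotypes were TRAV9 among 15672 TCRα clonotypes, 245 of 6089 in the thymus and 475 of 9583 in the spleen.

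The cells came from iR9-ESC, a C57BL/6 (CD45.2) embryonic stem cell line with an inducible Runx1-p2a-Hoxa9 cassette at the Rosa26 locus, whose hematopoietic progenitors (iHPC) were injected into sublethally irradiated B-NDG mice, an immunodeficient strain, at 8 to 10 weeks of age. At week 6 after transplantation 15000 CD4 or CD8 single-positive iT cells were sorted from the thymus and 15000 from the spleen, and each sort gave 1 library of TCRα and TCRβ transcripts, amplified with a SMARTer kit. Both libraries thus share the edited line and the host, neither has an unedited counterpart, and the number of mice behind each was not found in the sources used here. The study's text describes the sorted cells of both organs as naïve (CD62L+CD44-), while the gates in its methods list these markers for the spleen and not for the thymus, so whether the gates differed is not settled by the sources used here. TCRα reads numbered 918063 for the thymus library and 1820314 for the spleen library. With 1 library per tissue there was no test between tissues, and the exact 95% binomial intervals given here cover counting error only, since no molecular identifiers were stated.

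The α chain is assembled in developing thymocytes by joining 1 TRAV segment to 1 TRAJ segment, with bases trimmed from the ends and others inserted at the junction. The joint encodes the CDR3, the loop that lies over the bound peptide. The locus can rearrange again on the same chromosome, replacing the joint with one between a more distal TRAV and a more 3′ TRAJ segment, until the receptor is positively selected or the cell dies. In mice of the C57BL/6 type part of the TRAV cluster has been duplicated, and genes of the duplicated blocks carry the letters D or N, while genes of the original block carry neither.

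In the GENCODE M21 annotation of GRCm38 all TRAV9 genes lie on the plus strand of chromosome 14. From 5′ to 3′ the D copies are TRAV9D-1 (chr14:52792316-52792777), TRAV9D-2 (chr14:52892186-52892618), TRAV9D-3 (chr14:52920443-52921112) and TRAV9D-4 (chr14:52983201-52983860). The N copies that follow are TRAV9N-1 (chr14:53101801-53102265), annotated as a pseudogene, TRAV9N-2 (chr14:53203122-53203554), TRAV9N-3 (chr14:53231433-53232102) and TRAV9N-4 (chr14:53294341-53295030). The original copies TRAV9-1 (chr14:53488045-53488567), TRAV9-2 (chr14:53590857-53591514) and TRAV9-4 (chr14:53676141-53676630) are nearest to the TRAJ cluster. TRAV9D-1 ends 1362 kb before the first TRAJ segment and TRAV9-4 ends 478 kb before it. TRAV9N-1 was first-listed in no clonotype, and the other 10 genes were each first-listed in both libraries.

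The 3′ ends of these genes show how far a CDR3 can tell the copies apart. The last 60 bases of the GENCODE transcripts fell into 6 kinds among the 10 genes used, printed with the bases from the conserved cysteine codon onward, the germline start of the CDR3, in capitals.
TRAV9-1 and TRAV9D-1: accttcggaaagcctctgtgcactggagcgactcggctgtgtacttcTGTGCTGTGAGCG
TRAV9-4: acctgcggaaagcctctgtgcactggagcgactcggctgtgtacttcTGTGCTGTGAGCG
TRAV9D-3 and TRAV9N-3: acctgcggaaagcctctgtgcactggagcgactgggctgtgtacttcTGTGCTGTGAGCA
TRAV9D-4 and TRAV9N-4: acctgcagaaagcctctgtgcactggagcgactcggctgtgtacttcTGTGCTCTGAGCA
TRAV9D-2 and TRAV9N-2: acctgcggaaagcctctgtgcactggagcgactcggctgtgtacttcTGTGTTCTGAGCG
TRAV9-2: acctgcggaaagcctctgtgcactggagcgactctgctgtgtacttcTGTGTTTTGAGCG
Over their aligned transcripts TRAV9D-2 and TRAV9N-2 were identical, as were TRAV9D-3 and TRAV9N-3, while TRAV9-1 and TRAV9D-1 differed at 2 of 337 bases. TRAV9D-4 and TRAV9N-4 had the same bases apart from a stretch of 30 that is present in TRAV9N-4 and missing in TRAV9D-4. Genes of subgroup 1 were 77.1 to 81.3% identical to those of subgroups 2 to 4, and the latter were 96.2 to 100% identical to each other. The D and N copies of subgroups 2 and 3 therefore cannot be told apart by these transcripts, and those of subgroup 4 can be where a read spans the 30 bases.

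TRAV9 made up a modest part of the TCRα repertoire. It held 4.02% of the thymus TCRα clonotypes (3.54 to 4.55%) and 4.96% of the spleen ones (4.53 to 5.41%). By reads its thymus share was 1.57% (1.55 to 1.60%) and its spleen share 2.20% (2.18 to 2.22%). The share of reads was thus below the share of clonotypes in both libraries. TRAV9 ranked 9th of 20 TRAV families by clonotypes and 12th by reads in the thymus, and 8th of 21 and 11th in the spleen.

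TRAV9 clonotypes were small. The median TRAV9 clonotype held 46 reads in the thymus (quartiles 25 and 77), against 86 for the other TCRα clonotypes (43 and 167). In the spleen it held 54 reads (27.5 and 97.5), against 107 for the others (53 and 211). Of the 15 TRAV families with at least 50 clonotypes in a library, TRAV9 had the lowest median in both libraries, where the highest were 128 and 171 reads. All 6 groups of like copies lay low in this respect, with thymus medians from 34 to 57 reads and spleen medians from 33 to 65.5. The difference was seen among productive clonotypes, whose thymus medians were 50 reads for TRAV9 and 101 for the others, with 60 and 135 in the spleen. It was also seen among nonproductive ones, at 39 and 61 reads for the thymus and at 41 and 70 for the spleen. What sets the number of reads per clonotype was not tested.

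TRAV9-1 was the gene most often listed first. In the thymus it was first-listed in 60 clonotypes, or 24.5% of the TRAV9 clonotypes (19.2 to 30.4%), and in the spleen in 92, or 19.4% (15.9 to 23.2%). In the thymus TRAV9D-2 (34 clonotypes), TRAV9D-1 (33) and TRAV9N-4 (30) came next, with intervals that overlapped each other. TRAV9-2 and TRAV9N-3 followed with 20 clonotypes each, TRAV9-4 with 17, TRAV9D-3 with 15 and TRAV9D-4 with 13. The order in the spleen differed below the first place, with TRAV9D-3 (64), TRAV9N-3 (62), TRAV9N-4 (54), TRAV9-4 (51), TRAV9D-1 (50) and TRAV9D-2 (47) within a range of 9.89 to 13.5% of the family. TRAV9D-4 (27), TRAV9-2 (21) and TRAV9N-2 (7) were listed first less often there, and TRAV9N-2 was listed first in 3 thymus clonotypes. The count for TRAV9N-2 is one of names, since its transcript is identical to that of TRAV9D-2. The lead of TRAV9-1 also rests on names, since it differs from TRAV9D-1 at only 2 of 337 bases. Some CDR3s found in both libraries were named TRAV9-1 in one and TRAV9D-1 in the other.

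**Figure D1:**
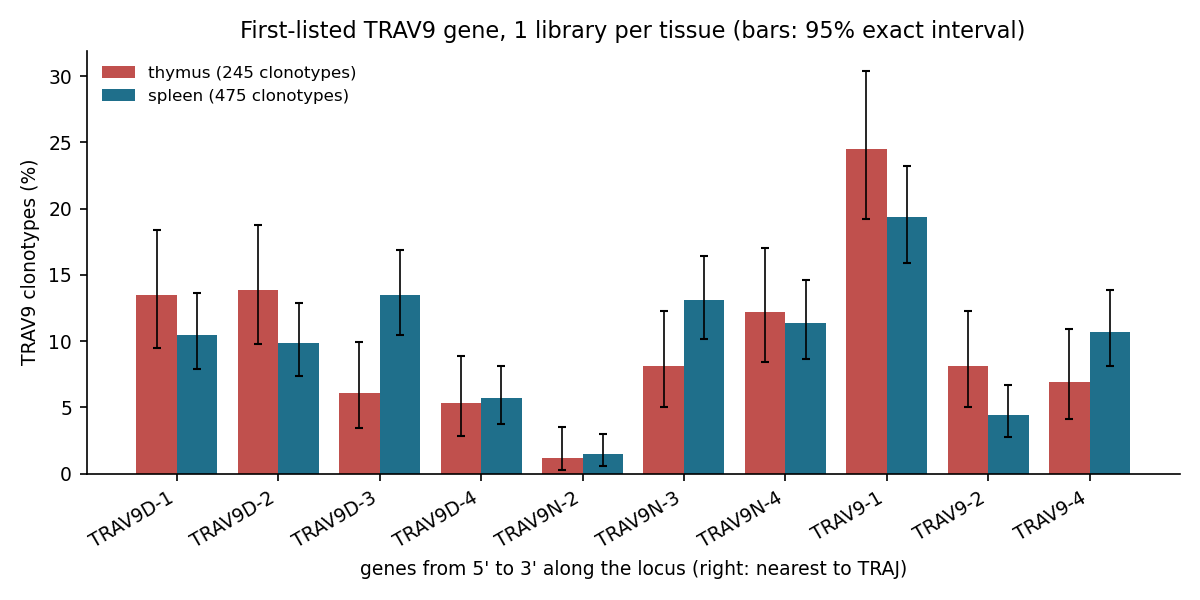
Share of TRAV9 clonotypes (y axis, percent) by first-listed gene, with genes in their order along the locus, in 1 thymus library (245 clonotypes) and 1 spleen library (475 clonotypes); error bars are exact 95% binomial intervals. TRAV9-1 was highest in both, at 24.5% and 19.4%, and the name TRAV9N-2 lowest, at 1.22% and 1.47%.

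By subgroup, which keeps the identical copies together, the libraries differed most in subgroup 3. Subgroup 3 (TRAV9D-3 and TRAV9N-3) took 35 of the 245 thymus clonotypes, or 14.3% (10.2 to 19.3%), and 126 of the 475 spleen clonotypes, or 26.5% (22.6 to 30.7%). These intervals did not overlap, but they cover counting error only, and with 1 library per tissue no difference between tissues was tested. Subgroup 3 was singled out as the largest of the differences by subgroup. Subgroup 1 took 38.0% in the thymus (31.9 to 44.4%) and 29.9% of spleen clonotypes (25.8 to 34.2%). Subgroup 2 took 23.3% (18.1 to 29.1%) and 15.8% (12.6 to 19.4%), and subgroup 4 took 24.5% (19.2 to 30.4%) and 27.8% (23.8 to 32.1%). The intervals of these 3 subgroups overlapped between the libraries. Weighted by reads, subgroup 3 held 36.2% of the TRAV9 reads in the spleen.

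D copies were named in 38.8% of thymus TRAV9 clonotypes (32.6 to 45.2%) and 39.6% of spleen ones (35.2 to 44.1%), N copies in 21.6% (16.6 to 27.3%) and 25.9% (22.0 to 30.1%), and original copies in 39.6% (33.4 to 46.0%) and 34.5% (30.3 to 39.0%). For these names the scores behind them matter. The top score was tied between genes in 20 thymus clonotypes (8.16%, 5.06 to 12.3%) and 52 spleen clonotypes (10.9%, 8.28 to 14.1%), against 25.5% and 26.6% of the other TCRα clonotypes. TRAV9D-3 with TRAV9N-3 was the most frequent tied set, in 11 thymus and 33 spleen clonotypes, followed by TRAV9D-4 with TRAV9N-4, in 5 and 9, and TRAV9-1 with TRAV9D-1, in 2 and 5. All tied genes were TRAV9 genes, and no TRAV9 clonotype listed a V gene of another family at any score. With tied clonotypes left out, D copies held 34.3% and original copies 36.6% in the spleen, so their order turned. In the thymus D copies then held 35.1% and original copies 41.3%.

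An untied score did not by itself separate identical copies. Over both libraries TRAV9D-3 and TRAV9N-3 were both listed in 263 TRAV9 clonotypes, with the D copy scoring higher in 72, the N copy in 93 and equal scores in 98. TRAV9D-2 and TRAV9N-2 were both listed in 187, and the D copy scored higher in 172 of them. In the alignments of TRAV9N-2 the reference of the aligner ended 3 bases into the CDR3, and in those of TRAV9D-2 13 bases into it, although GENCODE gives both 13. TRAV9D-4 and TRAV9N-4, which differ by the 30 bases, were listed together in 17 clonotypes, while TRAV9N-4 was listed without the D copy in 143 and TRAV9D-4 without the N copy in 26. An early end was also seen for TRAV9-2, whose reference also ended after 3 bases, while those of TRAV9-4 and TRAV9D-3 ended after 11 and that of TRAV9D-1 after 12.

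The first 9 bases of the CDR3 were compared with the names. This was not an independent check, since for most genes the reference of the aligner ran past these bases. They matched the germline start of a TRAV9 gene in 220 thymus and 430 spleen clonotypes. The first-listed gene was one with that start in 197 (89.5%) and 400 (93.0%) of them. Of these matches, 134 and 287 had the start that TRAV9-1, TRAV9D-1, TRAV9D-3, TRAV9N-3 and TRAV9-4 share, which does not tell these genes apart. Most of the exceptions concerned TRAV9-2. Its start was found in 32 clonotypes of each library, and in each library 16 of these were named TRAV9-2 and the other 16 TRAV9D-2. Only 10 thymus and 28 spleen clonotypes began as TRAV9D-2 and TRAV9N-2 do, where 37 and 54 were named so. By this reading the names gave TRAV9-2 fewer clonotypes, and TRAV9D-2 more, than the CDR3 starts did. The start shared by TRAV9-1, TRAV9D-1, TRAV9D-3, TRAV9N-3 and TRAV9-4 was found in 140 and 294 clonotypes, and that of TRAV9D-4 and TRAV9N-4 in 38 and 76.

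TRAV9 clonotypes were joined to 40 TRAJ genes in the thymus and to 41 in the spleen, of 47 and 52 used by all TCRα clonotypes. TRAJ22 was the most frequent partner in the thymus, with 21 clonotypes (8.57%, 5.38 to 12.8%), ahead of TRAJ31 and TRAJ34 with 18 each (7.35%). TRAJ21 led in the spleen, with 29 clonotypes (6.11%, 4.13 to 8.65%), ahead of TRAJ34 with 28 (5.89%) and TRAJ31 with 24 (5.05%). The leading partners thus held similar shares, and no single joint dominated the family. Among the other TCRα clonotypes of the thymus TRAJ22 held 4.71%, TRAJ31 5.53% and TRAJ34 4.14%. In those of the spleen TRAJ21 held 2.98%, TRAJ34 3.41% and TRAJ31 5.50%, the last above its TRAV9 share. Single TRAJ genes were not tested. Combinations of a TRAV9 gene and a TRAJ gene numbered 156 in the thymus and 218 in the spleen.

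In the spleen TRAV9 clonotypes used 3′ TRAJ genes more often, and 5′ TRAJ genes less often, than the other TCRα clonotypes. TRAJ numbers fall from 5′ to 3′, and genes from TRAJ23 downstream were taken as 3′ and those from TRAJ45 upstream as 5′. In the spleen 222 of 475 TRAV9 clonotypes (46.7%, 42.2 to 51.3%) and 3464 of 9108 other TCRα clonotypes (38.0%, 37.0 to 39.0%) used a 3′ TRAJ gene, a difference of 8.70 percentage points (odds ratio 1.43, 95% interval 1.18 to 1.73, Fisher's exact test, two-sided, p = 1.90e-04, 7.58e-04 adjusted over 8 tests). A 5′ TRAJ gene was used by 35 TRAV9 clonotypes (7.37%, 5.19 to 10.1%) and 1392 others (15.3%, 14.5 to 16%), with an odds ratio of 0.441 (0.302 to 0.626, Fisher's exact test, p = 4.22e-07, adjusted 3.38e-06). Weighted by reads, these differences shrank to 2.14 and -1.46 percentage points.

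In the thymus the differences had the same direction and did not pass the test. A 3′ TRAJ gene was used by 105 of 245 TRAV9 clonotypes (42.9%, 36.6 to 49.3%) and by 37.5% of the others, with an odds ratio of 1.25 (0.955 to 1.63, Fisher's exact test, p = 0.0930, adjusted 0.149). A 5′ TRAJ gene was used by 24 (9.80%, 6.38 to 14.2%) and by 14.8% of the others, with an odds ratio of 0.624 (0.389 to 0.960, Fisher's exact test, p = 0.0268, adjusted 0.0715). Among productive clonotypes the 5′ shares in the thymus were 8.11% and 15.1%, and the adjusted p was 0.0210. Each test compared clonotypes within 1 library and took them as independent, although cells of a library can share an origin. Whether the libraries differ in these contrasts was not tested.

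**Figure D2:**
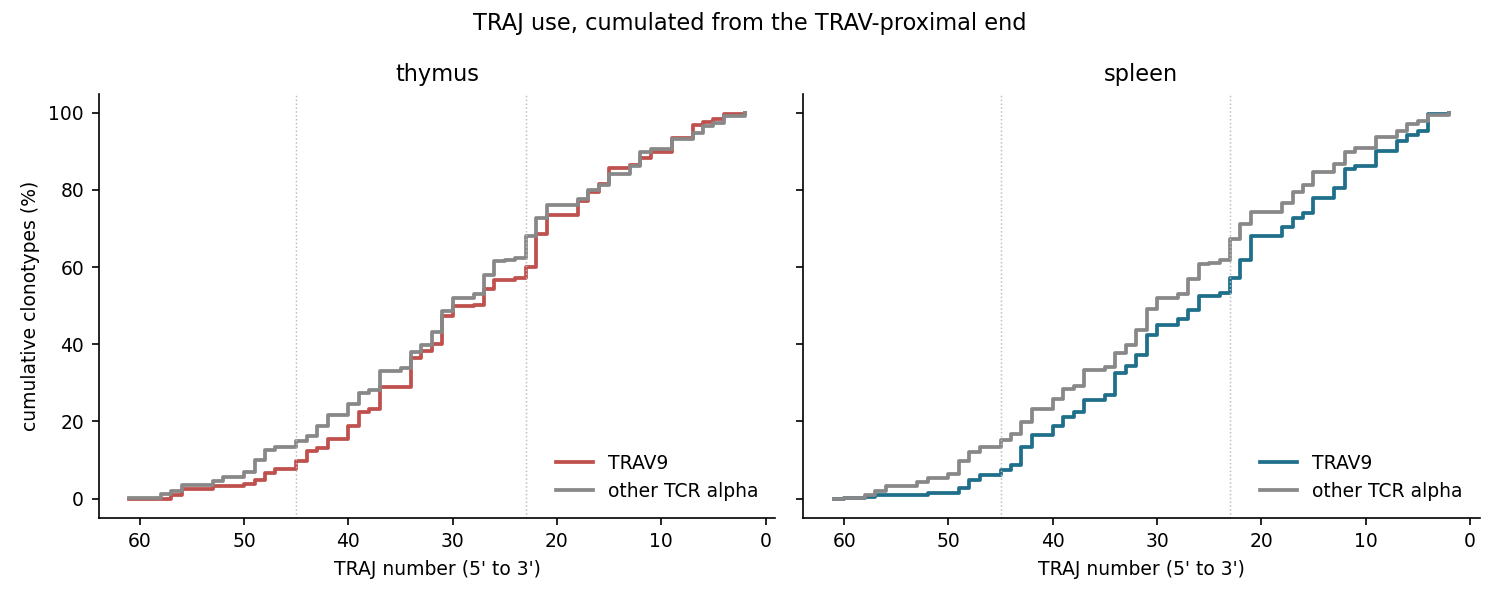
Cumulative share of clonotypes (y axis, percent) from the 5′ to the 3′ TRAJ genes (x axis, TRAJ number) for TRAV9 and for other TCRα clonotypes in each library; dotted lines stand at TRAJ45 and TRAJ23. In the spleen the TRAV9 curve ran below the other curve over most of the cluster, with 7.37% against 15.3% of clonotypes at TRAJ45.

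TRAJ partners differed between the original copies and the D and N copies. TRAV9-4, the TRAV9 gene nearest to the TRAJ cluster, had a median TRAJ number of 42 in the thymus library and 37 in the spleen library, the most 5′ of the 10 genes in both libraries. TRAV9-1 followed with medians of 33 and 30, and TRAV9-2 with 32.5 and 30. Among D copies the medians were 23 and 21 for TRAV9D-1, 30.5 and 26 for TRAV9D-2, 22 and 19 for TRAV9D-3 and 30 and 22 for TRAV9D-4. Among N copies TRAV9N-3 was at 18 and 19.5, TRAV9N-4 at 26.5 and 27.5, and TRAV9N-2, with few clonotypes, at 26 and 21. The median of each original copy was thus higher than that of each D and N copy in both libraries. By name, the medians of the D and N copies did not follow their order along the locus. D copies together had a median of 23 and N copies 22 in the thymus, and each had 22 in the spleen. Whether the D and N copies follow that order cannot be decided from these names. The transcripts of TRAV9D-2 and TRAV9N-2 are identical, as are those of TRAV9D-3 and TRAV9N-3. The clonotypes named TRAV9D-2 were mixed in their TRAJ numbers. Those with the CDR3 start of TRAV9D-2 had medians of 21 (8 clonotypes, thymus) and 22 (18, spleen), and those with the start of TRAV9-2 had medians of 35 and 26 (16 in each library).

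The original copies also stood apart in the shares of 3′ TRAJ genes. In the spleen 6 of 51 TRAV9-4 clonotypes (11.8%) used a 3′ TRAJ gene, against 78 of 126 clonotypes of TRAV9D-3 and TRAV9N-3 (61.9%), a pair of names that the transcripts set apart from TRAV9-4. In the thymus these were 4 of 17 (23.5%) and 24 of 35 (68.6%). Original copies together used a 3′ TRAJ gene in 27.4% of clonotypes in the spleen, D copies in 58.5% and N copies in 54.5%, beside 38.0% of the other TCRα clonotypes. In the thymus these were 28.9%, 50.5% and 54.7%, beside 37.5%. By these 3′ shares the original copies lay below the other TCRα clonotypes, and the D and N copies above them. Single genes could differ, with TRAV9-2 at 38.1% in the spleen and TRAV9N-2 (3 clonotypes) at 33.3% in the thymus. The 5′ shares were not ordered alike in both libraries. In the thymus original copies used a 5′ TRAJ gene in 14.4% of clonotypes, D copies in 8.42% and N copies in 3.77%. In the spleen these were 7.32%, 3.19% and 13.8%, and TRAV9N-4 (22.2%) was above TRAV9-4 (15.7%). Across clonotypes the rank correlation between the place of the gene along the locus and the TRAJ number was 0.274 for the spleen (475 clonotypes) and 0.269 for the thymus (245), given as a description, since clonotypes of a library share their source and many share a gene. With tied clonotypes left out it was 0.270 and 0.273. Between TRAV9-1 and TRAV9D-1 alone it was 0.269 (142 clonotypes) and 0.338 (93). These names are uncertain, since some CDR3s found in both libraries carried one name in the thymus and the other in the spleen.

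**Figure D3:**
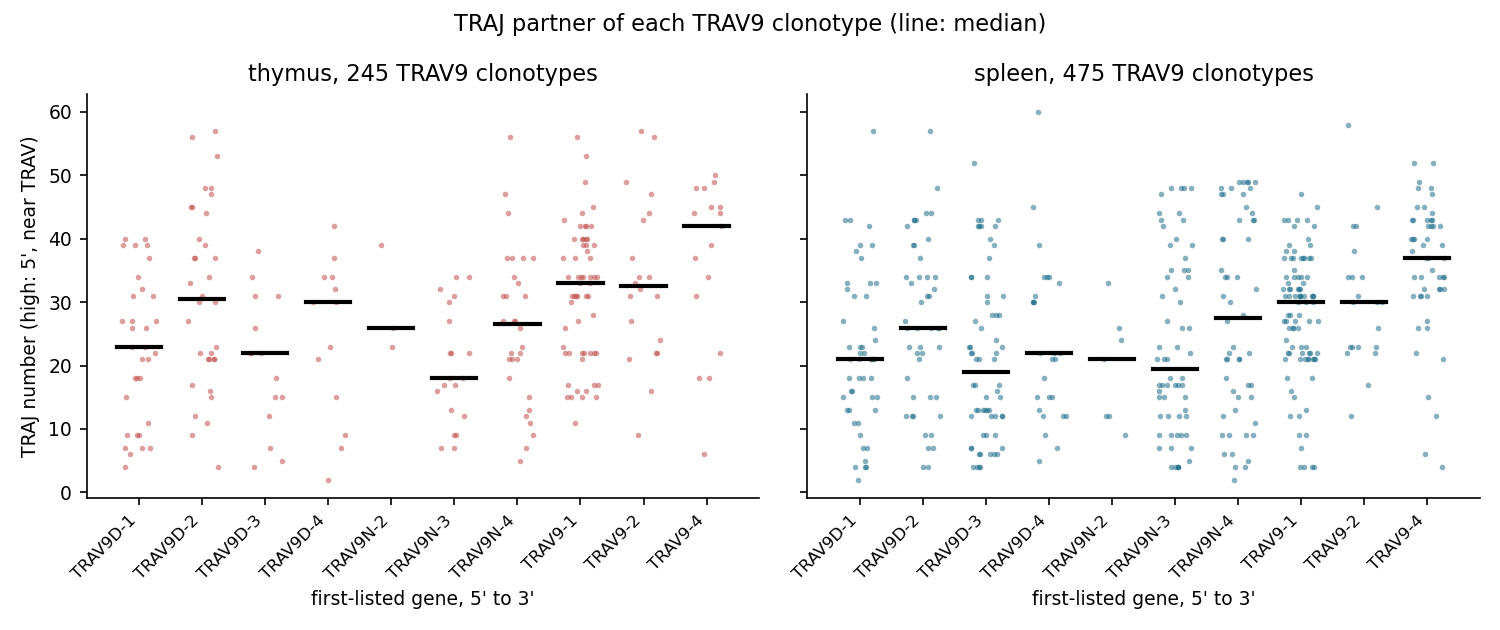
TRAJ number (y axis, high numbers are 5′ and nearest to the TRAV cluster) of each TRAV9 clonotype by first-listed gene, genes in order along the locus (x axis), in the thymus (245 clonotypes) and the spleen (475); points are clonotypes, spread sideways for clarity, and lines are medians. TRAV9-4 had the highest median in both libraries, 42 and 37.

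Most TRAV9 clonotypes were productive, that is, in frame and without a stop codon. In the thymus 185 of 245 were productive (75.5%, 69.6 to 80.8%), against 74.6% of the other TCRα clonotypes, with an odds ratio of 1.05 (0.775 to 1.44, Fisher's exact test, p = 0.822, adjusted 0.822). In the spleen 345 of 475 were productive (72.6%, 68.4 to 76.6%), against 69.2%, with an odds ratio of 1.18 (0.956 to 1.46, Fisher's exact test, p = 0.125, adjusted 0.167). No difference from the other TCRα clonotypes was detected in either library. The remaining 60 and 130 clonotypes were out of frame. In-frame CDR3s with a stop codon numbered 0 of 245, which allows a share of up to 1.22% (3 counts of the total; exact upper bound 1.49%), and 0 of 475, which allows up to 0.632% (exact upper bound 0.774%), where the other TCRα clonotypes held 0.394% and 0.362%.

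Out-of-frame transcripts held 20.8% of the thymus TRAV9 reads and 16.2% of the spleen ones, less than their 24.5% and 27.4% of clonotypes. By group of like copies the productive share in the spleen ran from 65.4% for TRAV9D-4 and TRAV9N-4 (81 clonotypes, 54.0 to 75.7%) to 90.5% for TRAV9-2 (21 clonotypes, 69.6 to 98.8%), with overlapping intervals. TRAV9D-3 and TRAV9N-3 stood at 81.7% (73.9 to 88.1%) and TRAV9-1 and TRAV9D-1 at 66.2% (57.8 to 73.9%). In the thymus the 6 groups ran from 67.6% to 79.1%. TRAV9D-4 had the lowest productive share of the 10 genes in both libraries, 7 of 13 (53.8%, 25.1 to 80.8%) and 11 of 27 (40.7%, 22.4 to 61.2%), beside 27 of 30 (90.0%, 73.5 to 97.9%) and 42 of 54 (77.8%, 64.4 to 88.0%) for TRAV9N-4. In the spleen these intervals did not overlap, although a test between them was not run. Part of the TRAV9D-4 count rests on ties. The scores of TRAV9D-4 and TRAV9N-4 were tied at the top in 5 thymus and 9 spleen clonotypes. TRAV9D-4 scored higher in 0 of the 17 clonotypes that listed both. The 30 bases missing from the TRAV9D-4 transcript were also missing from the reference of the aligner, in which its CDR3 began at position 240 and that of the other 9 genes at position 270.

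**Figure D4:**
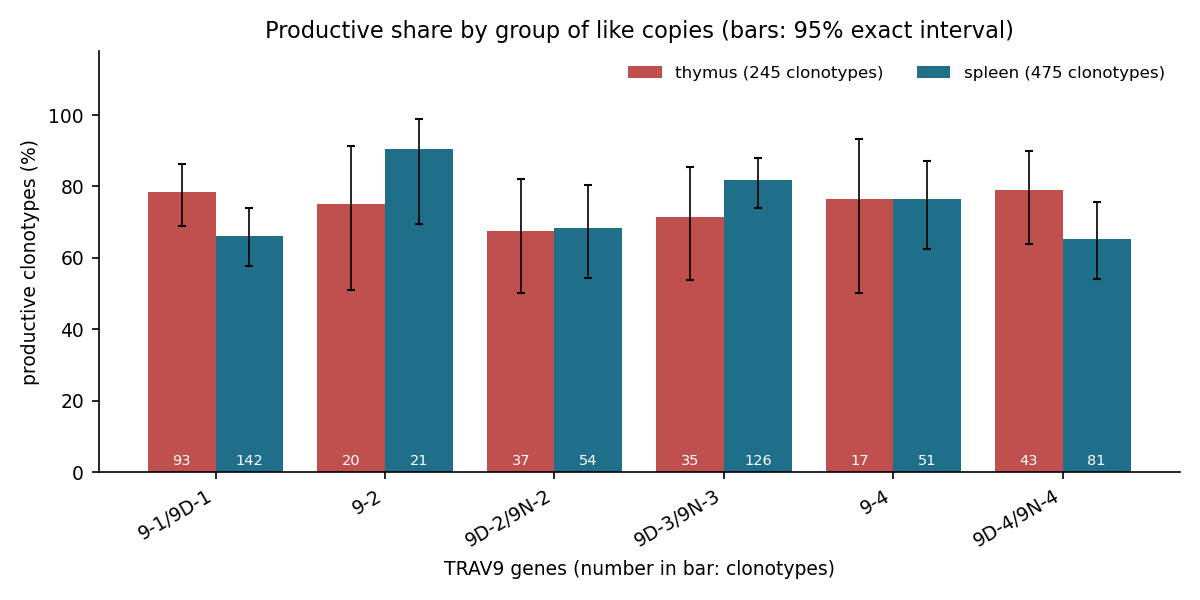
Productive share of clonotypes (y axis, percent) by group of like TRAV9 copies in the thymus and the spleen; error bars are exact 95% binomial intervals and the number in each bar is its clonotypes. The thymus groups lay between 67.6% and 79.1% with overlapping intervals, and the spleen groups between 65.4% and 90.5%.

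The CDR3 of productive TRAV9 clonotypes was 40.5 ± 3.46 nt long in the thymus (SD over 185 clonotypes) and 40.0 ± 3.91 nt long in the spleen (345 clonotypes), against 40.6 ± 4.89 and 40.6 ± 4.86 nt in the others. The difference in means was small beside the spread between clonotypes. The most frequent lengths were 42 nt in the thymus, with 63 clonotypes (34.1%), and 39 nt in the spleen, with 114 (33.0%). Lengths of 36 to 45 nt took in 95.1% of TRAV9 and 86.5% of other productive clonotypes in the thymus, and these shares were 87.0% and 85.7% for the spleen.

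The germline starts were visible in the protein ends. All productive TRAV9 CDR3s began with cysteine, and alanine was the next residue in 80.5% in the thymus and 84.9% in the spleen, below the 92.5% and 92.6% of the other TCRα clonotypes. Valine stood there in 19.5% and 14.5%, against 2.55% and 2.65% of the other TCRα clonotypes. The third residue was valine in 58.4% and 64.9%, against 13.8% and 16.4% of the others, and leucine in 35.1% and 29.0%, close to the 30.1% and 31.5% of the others. The fourth was serine in 64.3% and 71.0%, against 35.2% and 35.4%. These shares were not tested. The residues named are those encoded by the germline ends printed above. A protein was encoded by more than 1 TRAV9 clonotype in 6 cases in the thymus and 16 in the spleen, by 3 clonotypes at most.

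Joints without inserted bases were counted from the V and J ends in the alignments. In the thymus 47 of 185 productive TRAV9 clonotypes had none (25.4%, 19.3 to 32.3%), against 32.0% of the others, with an odds ratio of 0.722 (0.504 to 1.02, Fisher's exact test, p = 0.0635, adjusted 0.127). In the spleen 134 of 345 had none (38.8%, 33.7 to 44.2%), against 41.0%, with an odds ratio of 0.912 (0.725 to 1.15, Fisher's exact test, p = 0.432, adjusted 0.493). Neither difference passed the test. Weighted by reads, with no test, the spleen shares were 58.7% for TRAV9 and 56.0% for others, so the difference turned. Clonotypes named TRAV9-2 or TRAV9N-2, whose reference ended early, had 0 such joints in both libraries. With the ends taken from GENCODE and palindromic bases counted as inserted, the shares were 11.4% for TRAV9 and 14.5% for others in the thymus, and in the spleen they were 24.6% and 22.7%, and the median number of inserted bases in TRAV9 was 3 and 2.

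The largest TRAV9 clonotypes show both kinds of joint, and their CDR3s are printed with the bases that neither germline end gives in capitals.
Thymus, TRAV9N-2 with TRAJ39: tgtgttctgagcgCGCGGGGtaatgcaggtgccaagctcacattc
Thymus, TRAV9-1 with TRAJ17: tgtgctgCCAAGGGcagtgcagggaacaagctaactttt
Thymus, TRAV9D-1 with TRAJ9: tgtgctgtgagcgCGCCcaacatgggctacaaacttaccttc
Spleen, TRAV9N-4 with TRAJ47: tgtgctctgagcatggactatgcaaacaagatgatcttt
Spleen, TRAV9D-3 with TRAJ42: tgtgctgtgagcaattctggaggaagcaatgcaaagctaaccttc
Spleen, TRAV9N-3 with TRAJ9: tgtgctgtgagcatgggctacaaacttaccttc
The thymus clonotypes held 316, 269 and 231 reads, or 0.0344%, 0.0293% and 0.0252% of TCRα reads, and ranked 532nd to 923rd in size. They carried 7, 7 and 4 bases beyond the germline ends, and none was found in the spleen. The spleen clonotypes were larger, at 2356, 1154 and 959 reads (0.129%, 0.0634% and 0.0527%), and carried 0 such bases. The TRAV9N-4 joint to TRAJ47 ranked 45th among spleen TCRα clonotypes and was found with 6 reads in the thymus. The 10 largest TRAV9 clonotypes held 14.3% of the thymus and 21.3% of the spleen TRAV9 reads.

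A clonotype was taken as shared when its CDR3 bases, V subgroup and TRAJ gene were the same in both libraries. There were 11 shared TRAV9 clonotypes, 4.49% of those in the thymus (2.26 to 7.89%) and 2.32% of those in the spleen (1.16 to 4.11%). All 11 were productive, beside 75.5% of all TRAV9 clonotypes in the thymus and 72.6% in the spleen. The shared clonotypes held 4.74% of the thymus and 9.21% of the spleen TRAV9 reads. Among them TRAV9N-4 with TRAJ47 held 2356 spleen reads and 6 thymus reads. With read minimums of 2 and 10 the shared clonotypes numbered 9 and 8. By GENCODE ends 6 of the 11 had no inserted base, beside 11.4% of all productive TRAV9 clonotypes in the thymus and 24.6% in the spleen. The 3 with the largest read share in the library where they were smaller are printed in the same way.
TRAV9D-1 with TRAJ23: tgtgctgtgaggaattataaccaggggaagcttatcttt
TRAV9D-1 or TRAV9-1 with TRAJ27: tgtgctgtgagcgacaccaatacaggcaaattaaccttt
TRAV9N-2 or TRAV9D-2 with TRAJ23: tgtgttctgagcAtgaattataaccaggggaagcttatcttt
The first had 119 thymus and 606 spleen reads, the second 76 and 171, and the third 77 and 97. In 5 of the 11 the first-listed gene was the same in both libraries, and in the other 6 the same CDR3 carried the name of another copy of its subgroup. The CDR3 of 14 thymus and 14 spleen TRAV9 clonotypes, the 11 included, was found in any TCRα clonotype of the other library, or 5.71% and 2.95%, against 11.7% and 7.53% of the other TCRα clonotypes. For the remaining 3 in each library the CDR3 was assigned to another V family in the other library. Each CDR3 occurred once per library, since reads were assembled by CDR3, so joints with the same CDR3 from different V genes were held in 1 clonotype. How the shared joints arose was not tested.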

How the data were processed

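TCR transcripts of sorted iT cells were measured in 2 libraries, 1 from the thymus and 1 from the spleen. Per the study's methods, reads were demultiplexed with bcl2fastq and assembled into clonotypes with MiXCR. The authors deposited the read count of each clonotype, without normalization, and a fraction column, that count divided by the library total of TCRα and TCRβ. The gene library and build were not given in the sources used here.

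The members were chosen by their first-listed V gene, and members and measures were chosen with earlier results of these data known. Each clonotype was counted once, with no read minimum. Genes named were all TRAV9 genes listed first, the 3 most frequent tied sets, and the 3 leading TRAJ genes, largest clonotypes and shared clonotypes. Fisher's exact tests (two-sided) compared TRAV9 with other TCRα clonotypes within a library for 4 measures, adjusted over 8 tests by Benjamini-Hochberg. Inserted bases were read from the aligned V and J ends, and germline sequence and coordinates from GENCODE M21 (GRCm38). Copies were aligned with Biopython 1.88. Smallest shares that 3 reads could show were 3.27e-04% of thymus and 1.65e-04% of spleen TCRα reads. Merging and the insertion counts from GENCODE ends were run on simulated errors and joins, as a check of the code only. The simulated errors met the merging rule by design. Simulated joins were matched to their own V gene, while clonotypes were matched to the best-matching gene of their V family. The error of these measures on real clonotypes was not tested. The insertion counts from the aligned ends had no such check. Alternatives were read minimums of 2 and 10, V ties, merging of single-base errors at 20 times the reads, productive clonotypes, weighting by reads, other TRAJ bins, at most 1 inserted base, and other matching of shared clonotypes. The libraries were not tested against each other. GENCODE ends and names read from the CDR3 start were added after seeing the data.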

Additional observations from a re-analysis of the deposited data

How the results depend on the processing

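No difference that passed the test changed direction under another setting. Of 91 recomputed values of the main comparisons, 81 kept their side of the test or stayed near the reported value. Near meant within its interval, or within 1.5 times for a count. The settings on V ties are included and could change none of these values, since no clonotype listed V genes of both TRAV9 and another family. In the thymus the 5′ TRAJ difference was -6.98 percentage points among productive clonotypes, past the test (-5.02 with all clonotypes, not past it). Weighted by reads, with no test, the productive difference was -5.64 points for the thymus and -1.86 for the spleen (0.904 and 3.40 by clonotypes), and the spleen TRAJ differences were 2.14 points for 3′ and -1.46 for 5′ (8.70 and -7.91 by clonotypes), while the spleen zero-insertion difference turned to 2.72 points. With GENCODE ends the zero-insertion difference in the spleen was 1.90 points (-2.20 with the aligner's ends, neither past the test). The TRAV9 share of TCRα reads among productive clonotypes was 1.47% (thymus) and 2.15% (spleen). By CDR3 protein 17 productive TRAV9 sequences were shared, against 11 clonotypes. The cause of these changes was not tested. Merging of single-base errors removed 1 thymus and 5 spleen TRAV9 clonotypes. Depth limits shares of single clonotypes, and 26 thymus and 47 spleen TRAV9 clonotypes had fewer than 10 reads. No paired analysis was possible because each tissue had 1 library.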
